A study of Mus musculus with 7 samples.

Results

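The regions described here had peaks of the germline factor CTCFL in both mouse cell lines. Its paralogue CTCF had a peak there in 3T3 fibroblasts, but not in P19 embryonal carcinoma cells. Peaks of 4 deposited lists were pooled, and peaks that shared at least 1 bp were merged into 65700 regions. Those with a 3T3 CTCF peak, a 3T3 CTCFL peak and a P19 CTCFL peak, and no P19 CTCF peak, numbered 652, or 0.992% of all regions. The presence and absence of peaks chose these regions, so those counts are a description and not a finding. The nearest class, with peaks of all 4 lists, held 1353 regions and differs from the 652 only in having P19 CTCF.

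CTCF is a zinc-finger protein that binds a long DNA motif, halts the cohesin ring that extrudes chromatin loops, and so helps to set domain borders and insulate promoters from enhancers. CTCFL, also called BORIS, has a very similar zinc-finger array but different ends. It is normally made in male germ cells and is silent in most somatic cells, where introduced CTCFL can occupy a part of the CTCF sites.

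The 3T3 lists came from NIH3T3 cells, an immortalised mouse fibroblast line, with stably integrated pTA-N and pBI-EGFP-FLAG-mCtcfl, an inducible construct for tagged mouse Ctcfl. Per the labels, cells were kept with 2 µg/ml doxycycline and induced by 48 h of growth without it. The P19 lists came from mouse embryonal carcinoma cells labelled with the same integrate, the same 2 µg/ml doxycycline and the same 48 h. The P19 samples were titled as controls, though, so whether CTCFL was induced in P19 cannot be told from the labels. CTCF was precipitated with antibody N2.2 and CTCFL with antibody S6. Whether a line was 1 clone is not stated, and libraries of P19 input DNA and of 3T3 cells that lack the construct were not analysed here. The labelled cell types could not be checked against markers, since no expression was measured.

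Each list stands for 1 library, so the values below were not checked in replicates and are given without p-values. Intervals are exact 95% intervals (Clopper-Pearson for shares, order statistics for medians) and cover counting error over regions only. The lists held 45653 peaks for 3T3 CTCF, 16764 for 3T3 CTCFL, 32277 for P19 CTCF and 5866 for P19 CTCFL. The number of reads behind a peak is unknown, since the lists hold no counts or depths. The score of a peak is the authors' own value from the peak caller, read as −10 times the log10 of its p-value, and is compared only within a list. No genome or annotation of mm9, the mouse build named in the submitters' processing notes, was used here, so no region was assigned to a gene and no sequence was read.

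In 3T3 cells the 652 regions scored high for both factors, but their CTCF scores were well below those of the regions with all 4 lists while their CTCFL scores were not. The 3T3 CTCFL score ran from 50.3 to 3090 with a median of 274 (244 to 302), which lies at percentile 89.6 of that list, counted from the lowest score. In the 1353 regions with all 4 lists the median was 232 (205 to 250). The 3T3 CTCF score had a median of 411 (357 to 459) in the 652 regions, at percentile 85.7, against 1658 (1507 to 1754) in the regions with all 4 lists, at percentile 96.1. The difference of medians was −1247 (−1357 to −1088) for CTCF and 42.7 (7.78 to 81.6) for CTCFL. The CTCFL difference was 99.4 (38.9 to 216) with scores of at least 100 in each list and 119 (54.3 to 171) with lists of equal length, so its size depends on these limits. Both limits also drop weaker P19 CTCF peaks, so the regions compared then include some outside the 652. Both 3T3 scores were above those of the 5984 regions with both factors in 3T3 and no P19 peak, where the medians were 148 for CTCF and 95.04 for CTCFL.

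In P19 the CTCFL signal at the 652 regions was ordinary for its list. The P19 CTCFL score ran from 50.02 to 309 with a median of 75.9 (73.1 to 77.6), at percentile 50.9. In the regions with all 4 lists it had a median of 100.9 (96.3 to 105) and reached 1059. The difference was −25.0 (−30.0 to −20.1). The median of the 652 was close to the 73.7 (71.9 to 75.9) of the 849 regions with both factors in P19 and none in 3T3, and to the 74.5 (72.9 to 76.6) of the 1716 regions with CTCF of both lines and CTCFL in P19 only. It was above the 61.4 (60.2 to 62.5) of the 920 regions with P19 CTCFL alone.

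**Figure D1:**
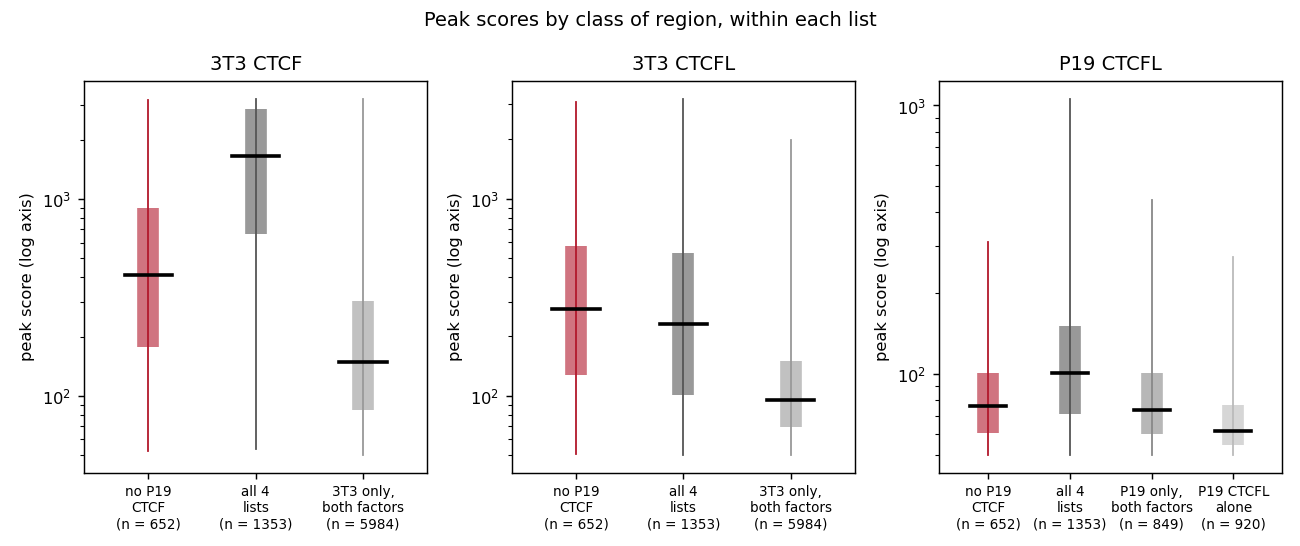
Peak scores of the authors' caller on a log axis, by class of region, for 3T3 CTCF (left), 3T3 CTCFL (middle) and P19 CTCFL (right). Black lines are medians, thick bars the middle 50% of regions and thin lines the full range. The regions without P19 CTCF (red) have a median 3T3 CTCF score of 411 against 1658 in the regions with all 4 lists, and a median 3T3 CTCFL score of 274 against 232.

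The 652 regions varied widely among themselves. Of them, 568 (87.1%, 84.3 to 89.6) had a 3T3 CTCFL score above that list's median, and the same number had a 3T3 CTCF score above the CTCF median. Both held for 518 regions (79.4%). In the regions with all 4 lists these shares were 82.3% for 3T3 CTCFL, 97.3% for 3T3 CTCF and 81.2% for both. For P19 CTCFL the share was 50.9% of the 652, against 70.4% of the regions with all 4 lists. Above the list median in all 3 lists were 273 of the 652 (41.9%, 38.1 to 45.8), against 57.7% (55.0 to 60.4). Across the 652 regions the 2 factors' scores in 3T3 ran together, with a Spearman's rho of 0.648. The 3T3 and P19 CTCFL scores had a rho of 0.230, and 3T3 CTCF and P19 CTCFL a rho of 0.138. In the regions with all 4 lists these values were similar, at 0.675, 0.244 and 0.0849 in the same order. The 3T3 scores share a cell line and all of them share the caller's lower limit, so these are descriptions.

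The 10 regions with the highest mean percentile over the 3 lists show the class at its strongest. The first, chr4:155221204-155222355, scored 3100 for 3T3 CTCF, 1241 for 3T3 CTCFL and 251 for P19 CTCFL, and its nearest P19 CTCF peak lay 12.6 kb away. Of the 567 peaks of the 3T3 CTCF list that score 3100 or more, 505 have exactly 3100 and the highest has 3233, so that score is a tied value that does not order the strongest peaks. The second, chr7:29526618-29527535, scored 2247 for 3T3 CTCF, 1108 for 3T3 CTCFL and 248 for P19 CTCFL. The third, chr11:98724360-98725416, had the highest 3T3 CTCFL score of the class, 3090, beside 1237 for 3T3 CTCF and 291 for P19 CTCFL. Region chr5:33616585-33618171 had the highest P19 CTCFL score of the class, 309. It was made of 3 CTCF peaks and 2 CTCFL peaks in 3T3, with top scores of 1782 and 703.

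The others of the 10 were single peaks in each list. Region chr5:115140702-115141398 scored 2773, 1659 and 196 in the order 3T3 CTCF, 3T3 CTCFL and P19 CTCFL. Region chr11:23155042-23156969 combined a CTCF peak of 1799 bp, which scored 1160, with a narrower CTCFL peak of 676 bp, which scored 1563. Region chr10:44786426-44787476 and region chr14:56278901-56279762 had 3T3 CTCF scores of 2264 and 2535. At chr2:120996603-120997385 CTCFL scored 1739 in 3T3 and 256 in P19, with 3T3 CTCF at 933. The last, chr11:98670846-98671646, lies on the same stretch of chromosome 11 as the third and scored 1431, 1140 and 216. The P19 CTCF peak nearest to these 10 was 2.76 to 20.7 kb away.

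**Figure D2:**
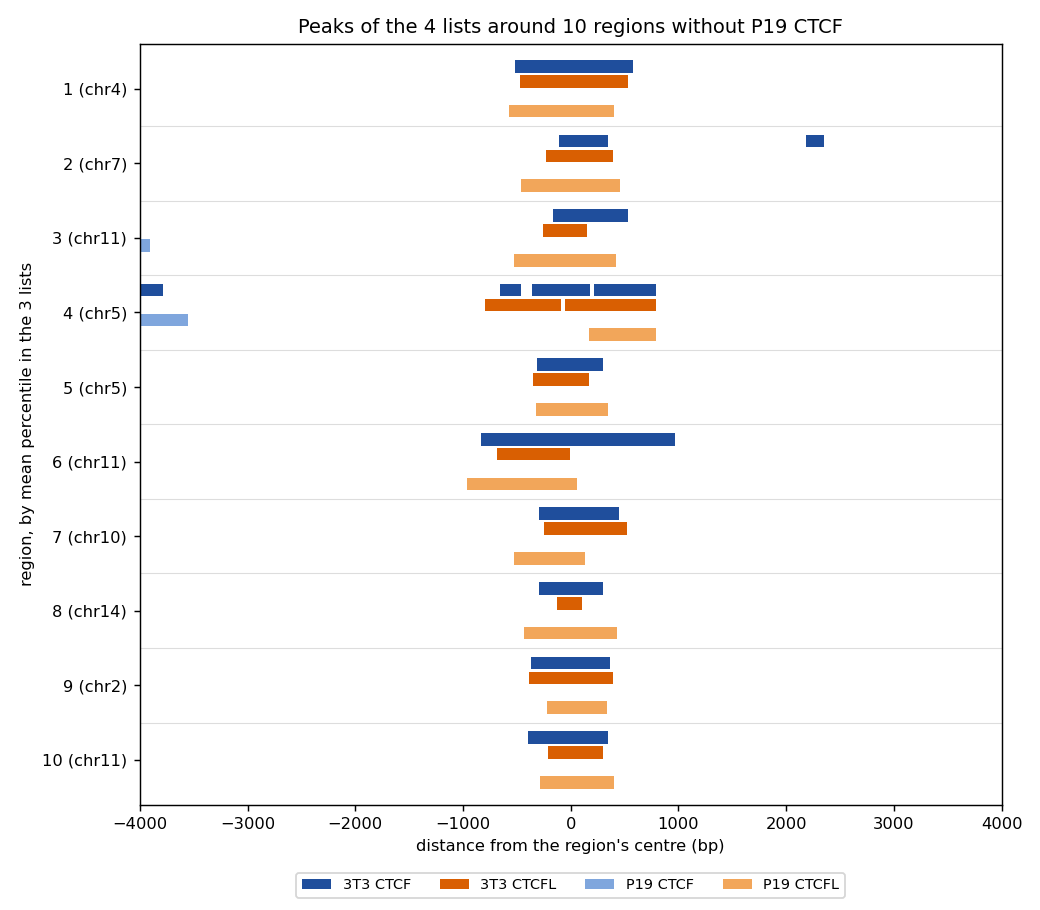
Peaks of the 4 lists within 4000 bp of the centre of the 10 regions with the highest mean percentile, 1 row of bars per list and drawn to scale. The 3T3 CTCF, 3T3 CTCFL and P19 CTCFL peaks overlap at each region, though not every peak covers its centre. In region 4 several lie to a side, among them the P19 CTCFL peak, and in region 6 the 3T3 CTCFL peak does. P19 CTCF peaks appear only at the left edge of regions 3 and 4.

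The leading regions of single lists varied in their scores in the other lists. The 3T3 CTCF score was highest at chr10:93497973-93499283 (3191), where 3T3 CTCFL scored 185 and P19 CTCFL 108. At chr1:120949705-120950656, 3T3 CTCF scored 3188 and 3T3 CTCFL 642, with P19 CTCFL at 59.4, near the caller's limit of 50. Region chr4:117555344-117556263 scored 3174, 871 and 143 in the order 3T3 CTCF, 3T3 CTCFL and P19 CTCFL. In these regions, in the order named, the 3T3 CTCFL score lay at percentiles 83.7, 96.8 and 98.1 of its own list. Strong CTCFL in 3T3 likewise went with differing P19 levels. Region chr5:125658980-125659749 had a 3T3 CTCFL score of 2829 and a P19 CTCFL score of 102, and chr9:106690960-106691750 had 2453 and 115. At chr9:75289100-75289817 the scores were 1951 for 3T3 CTCFL and 289 for P19 CTCFL, with 803 for 3T3 CTCF.

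How often P19 CTCF was lacking varied with the other peaks present. Among the 2005 regions with 3T3 CTCF and CTCFL of both lines, the 652 without P19 CTCF were 32.5% (30.5 to 34.6). The same share was 58.8% over all 44633 regions with 3T3 CTCF, and 71.0% over the 9344 with both factors in 3T3. Where both factors were in 3T3 and P19 CTCFL was absent, it was 81.5%, and with 3T3 CTCF and CTCFL of neither line it was 58.1%. Regions with 3T3 CTCF and P19 CTCFL but no 3T3 CTCFL lacked P19 CTCF least often, in 216 of 1932 cases (11.2%, 9.81 to 12.7). Over all regions with P19 CTCFL the share was 32.0%. The 2005 regions therefore lacked P19 CTCF 2.91 times as often as the 1932, which were set apart by the absence of 3T3 CTCFL. Their 3T3 CTCF scores differed as well. Within the 2005 the medians were 411 without and 1658 with P19 CTCF, and within the 1932 they were 100.5 and 196. The ratio was not matched for score. When each list was shortened to the 5866 peaks that scored best, the 32.5% became 62.6% (59.8 to 65.4). That step shortens both 3T3 lists and the P19 CTCF list together, leaves the P19 CTCFL list whole, and kept 285 of the 652 regions in the class.

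Seen from the other side, P19 CTCFL was found at 5816 of all 65700 regions. Among the regions with both factors in 3T3 it was found at 652 of the 6636 without P19 CTCF, 9.83% (9.12 to 10.6). With P19 CTCF present it was found at 1353 of 2708, 49.96% (48.1 to 51.9). Without 3T3 CTCFL and without P19 CTCF, only 216 of 19586 regions with 3T3 CTCF had P19 CTCFL, 1.10% (0.961 to 1.26). The 9344 regions with both factors in 3T3 were then put in 5 equal groups of 3T3 CTCFL score. Of the regions without P19 CTCF, from 1463 in the lowest group to 993 in the highest, some had P19 CTCFL. Their share, low to high, was 3.49% (2.61 to 4.56), 3.41%, 4.86%, 10.4% and 34.8% (31.9 to 37.9). The 2 lowest groups were alike within their intervals. Of the regions with P19 CTCF, the share with P19 CTCFL was 33.0% (28.4 to 37.8), 35.3%, 42.2%, 43.8% and 72.9% (69.8 to 75.8). The highest group supplied 346 of the 652 regions.

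Among the 2005 regions, the share without P19 CTCF was lower at higher 3T3 CTCF and P19 CTCFL scores, and showed no steady trend with the 3T3 CTCFL score. Grouped by 3T3 CTCF score, 60.8% (55.9 to 65.7) of the lowest group lacked P19 CTCF, then 50.9%, 29.7% and 14.7%, and 6.48% (4.28 to 9.36) of the highest group did. Grouped by 3T3 CTCFL score the shares were 25.7% (21.5 to 30.3), 30.7%, 36.4%, 37.9% and 31.9% (27.4 to 36.7). The highest minus the lowest of these groups was 6.23 points (−0.207 to 12.6), but 14.1 points (2.66 to 25.3) when scores of at least 100 were required in each list. That limit also drops weaker P19 CTCF peaks, so it changes which regions count as lacking P19 CTCF. Grouped by P19 CTCFL score they went down from 47.1% (42.2 to 52.1) in the lowest group to 13.0% (9.84 to 16.7) in the highest. The highest 3T3 CTCF group still held 26 regions without P19 CTCF.

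**Figure D3:**
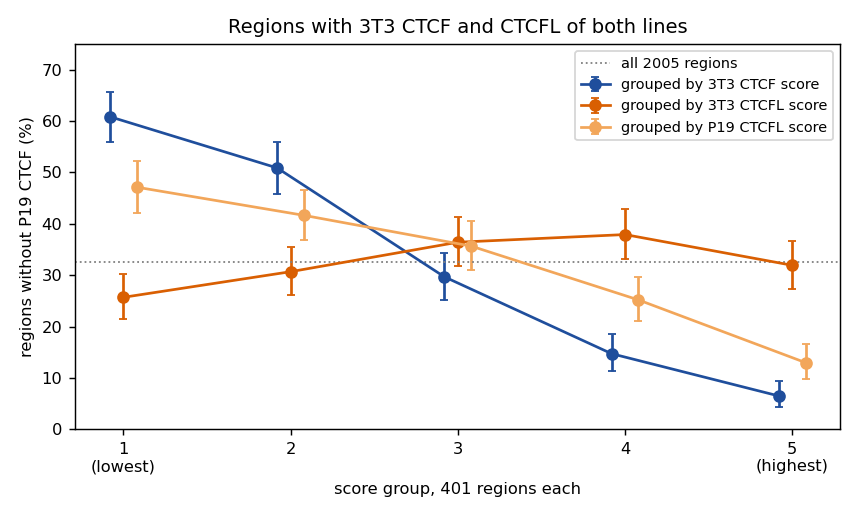
Share of regions without P19 CTCF (%, with exact 95% intervals) among the 2005 regions with 3T3 CTCF and CTCFL of both lines, in 5 equal groups of 401 regions from the lowest to the highest score. The dark blue line (3T3 CTCF score) goes from 60.8% to 6.48%, while the dark orange line (3T3 CTCFL score) stays between 25.7% and 37.9%.

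At like CTCF score, the regions without P19 CTCF had higher CTCFL scores in 3T3. In the 5 groups of 3T3 CTCF score, low to high, their median 3T3 CTCFL scores were 132, 293, 503, 703 and 1198. In the regions with all 4 lists the medians were 80.1, 100.6, 152, 276 and 676 in the same groups. Peaks of the same lists chose these regions, so this difference is a description. Among regions with both factors in 3T3 and no P19 CTCF, P19 CTCFL was found at 3.49% of the lowest 3T3 CTCFL group and 34.8% of the highest. With P19 CTCF these shares were 33.0% and 72.9%. How far this selection makes the difference was not tested. At like CTCFL score, the regions without P19 CTCF had lower CTCF scores in 3T3. In the 5 groups of 3T3 CTCFL score the median 3T3 CTCF score was 136, 207, 345, 607 and 1219 without P19 CTCF, against 470, 927, 1821, 2345 and 3100 with it. The last value is the score shared by those tied peaks, so the difference in that group is not to be read as a size. A group still spans a range of scores, so scores within it are alike and not equal.

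Lower 3T3 CTCF scores at like CTCFL score were also measured at sites that lacked P19 CTCFL. Where both factors were in 3T3 and P19 CTCFL was absent, the median 3T3 CTCF score in the groups of like CTCFL score, low to high, was 100.7, 103, 129, 193 and 413 without P19 CTCF, against 526, 860.4, 1169.6, 1517 and 2513 with it. In the groups of like CTCF score the median 3T3 CTCFL score was 75.3, 82.2, 99.5, 140.5 and 249.8 without P19 CTCF, against 78.5, 69.8, 76.8, 81.6 and 132 with it. The lowest of these groups, where the order was the other way, had only 33 regions with P19 CTCF. The second had 55, and there the intervals of the medians overlapped (79.6 to 84.2 without P19 CTCF, 62.0 to 80.6 with it).

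**Figure D4:**
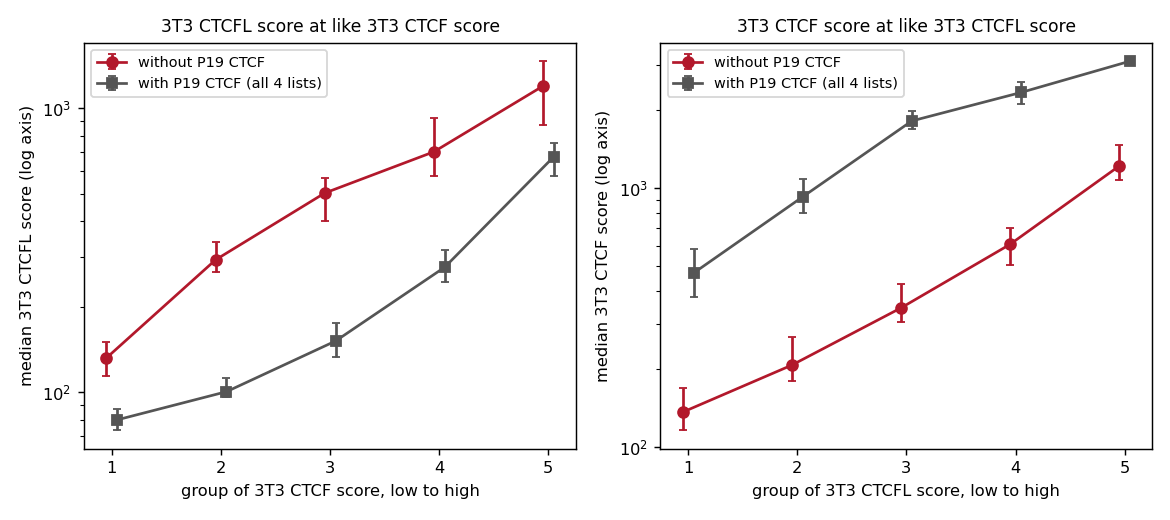
Median 3T3 CTCFL score in groups of 3T3 CTCF score (left) and median 3T3 CTCF score in groups of 3T3 CTCFL score (right), on log axes with exact 95% intervals, for the 652 regions without P19 CTCF (red) and the 1353 with it (grey). The red points lie above the grey ones in each group on the left and below them in each group on the right.

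The 3T3 CTCFL peak was wider at the 652 regions, with a median of 514.5 bp (485 to 544), than in the regions with all 4 lists, with 396 bp (377 to 410). The difference was 118.5 bp (85.8 to 154). At like 3T3 CTCFL score the ratio of median widths was 1.06 to 1.35. It was 1.02 to 1.28 at the sites with both factors in 3T3 and no P19 CTCFL, so wider CTCFL peaks without P19 CTCF were not limited to the 652 regions. The 3T3 CTCF peak had 713.5 bp (677 to 739) against 676 bp (654 to 695), a difference of 37.5 bp whose interval (−3.65 to 71.2) includes 0. Its ratio was 1.02 to 1.28 at like 3T3 CTCF score and 0.901 to 1.13 at like 3T3 CTCFL score. The P19 CTCFL peak was narrower, at 597.5 bp (585 to 615) against 655 bp (639 to 673). The whole region spanned 350 to 2523 bp with a median of 907 bp.

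More than 1 CTCFL peak of 3T3 lay in 107 of the 652 regions (16.4%, 13.6 to 19.5), and in 14.4% (12.6 to 16.4) of the regions with all 4 lists. More than 1 CTCF peak of 3T3 lay in 68 (10.4%, 8.19 to 13.0), and in 10.6% (9.05 to 12.4) of the others. Only 3 regions had 2 P19 CTCFL peaks. The widest region, chr10:17441899-17444421, was 2523 bp long with 1 CTCF and 2 CTCFL peaks in 3T3, at scores of 317 and 157. Next came chr15:88692182-88694537, which had 4 CTCFL peaks of 3T3 with a top score of 110.6 and a single CTCF peak of 2170 bp. At chr11:117515203-117517321 a CTCF peak of 1660 bp scored just 64.1, with 3T3 CTCFL at 170. Region chr3:51143454-51145562 had 3 CTCFL peaks within a CTCF peak of 2109 bp.

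The centres of the strongest CTCFL and CTCF peaks of 3T3 lay within 100 bp in 380 of 652 regions (58.3%, 54.4 to 62.1), with a median offset of 78.5 bp, and within 100 bp in 61.9% (59.2 to 64.5) of the regions with all 4 lists. The CTCFL peaks of the lines, P19 and 3T3, had centres within 100 bp in 53.7% (49.8 to 57.6) of the 652 regions and 52.9% (50.2 to 55.6) of the others. For P19 CTCFL against 3T3 CTCF fewer were this close, 41.1% (37.3 to 45.0) of the 652 regions, with a median offset of 123 bp, and 48.0% (45.3 to 50.7) of the others. The 3T3 CTCFL peak lay wholly inside the CTCF peak in 319 of the 652 regions (48.9%, 45.0 to 52.8), against 65.9% (63.3 to 68.5) of the regions with all 4 lists. The reverse, a CTCF peak inside the CTCFL peak, was found in 56 (8.59%, 6.55 to 11.01), against 2.51% (1.75 to 3.49). Wider CTCFL peaks fit less often inside another peak, so these shares and the widths above are not independent.

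Around the 652 regions, P19 CTCF peaks lay at distances close to those of other regions without P19 CTCF. A P19 CTCF peak lay within 10 kb of 299 of them (45.9%, 42.0 to 49.8), against 46.4% (45.1 to 47.6) of the regions with both factors in 3T3 and none in P19, and 46.8% over all regions without P19 CTCF. The median distance was 11.8 kb, and 11.5 and 11.2 kb in these other sets. Within 50 kb the share was 88.7% (86.0 to 91.0), and within 1 kb it was 8.90% (6.82 to 11.3), against 9.09% and 8.72%. Within 100 kb on either side the 652 regions had a median of 5 P19 CTCF peaks and 8 further 3T3 CTCF peaks. For the regions with all 4 lists these were 6 and 10. No other P19 CTCFL peak lay that close to 245 of the 652 (37.6%, 33.8 to 41.4), against 31.2% (28.7 to 33.7). The regions with both factors in 3T3 and none in P19 were near the 652. Their medians were 5 and 9, and 37.0% (35.8 to 38.3) had no P19 CTCFL peak that close.

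**Figure D5:**
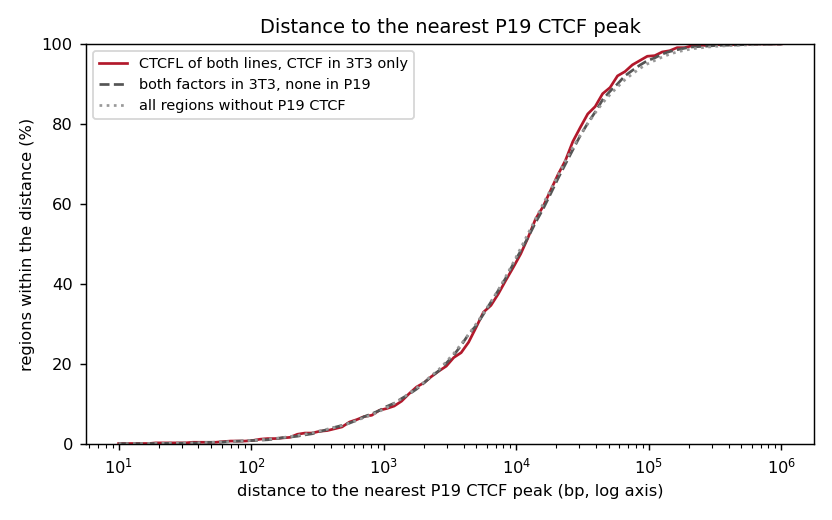
Share of regions (%) with a P19 CTCF peak within a given distance (bp, log axis), for the 652 regions with CTCFL of both lines and CTCF in 3T3 only (red), the 5984 with both factors in 3T3 and none in P19 (dashed) and all regions without P19 CTCF (dotted). The curves nearly coincide, at 45.9%, 46.4% and 46.8% within 10 kb.

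Some regions met the rule by a few bases. At chr7:129210238-129211408, with scores of 1127 for 3T3 CTCF, 2623 for 3T3 CTCFL and 203 for P19 CTCFL, a P19 CTCF peak began 3 bases from the region. The gap was 17 bases at chr9:105396829-105397940, 34 at chr19:10115632-10116770 and 59 at chr11:50415138-50416380. In all, 12 of the 652 (1.84%, 0.955 to 3.19) had such a peak within 200 bp. At the other end, the P19 CTCF peak nearest to chr7:66483890-66484990 was 484 kb away and that nearest to chr17:42452584-42453694 was 287 kb away. Just outside the rule, P19 CTCF overlapped the other peaks by at most 29 bp at chr11:62094226-62095574, 81 bp at chrX:97014615-97016848 and 198 bp at chr13:113783614-113784839.

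The score limit of the caller is the other edge of the rule. Of the 652 regions, 157 (24.1%, 20.8 to 27.6) had a P19 CTCFL score under 60, against 177 of 1353 (13.1%, 11.3 to 15.0) with all 4 lists. The lowest, at chr11:50415138-50416380, was 50.02. Among the regions with all 4 lists, 52 (3.84%, 2.88 to 5.01) had a P19 CTCF score under 60. The weakest, at chr11:69833983-69834905, had a P19 CTCF score of 50.22. Chromosome 12 had a case with strong CTCFL just outside the rule, chr12:21379044-21379952, with a P19 CTCF score of 50.7 beside 1147 for 3T3 CTCFL and 206 for P19 CTCFL. Signal under the limit is not recorded in the lists, so no peak does not mean no CTCF. With scores of at least 100 required in each list, 234 regions met the rule, and 145 of the 652 were among them. That limit also drops P19 CTCF peaks under 100, and 266 of the 1353 regions with all 4 lists had a P19 CTCF score under 100. The 234 are therefore not simply a stricter part of the 652.

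The 652 regions were spread over all autosomes and X. Chromosome 11 held most, 74 (11.3%, 9.02 to 14.0), against 12.3% of the regions with all 4 lists, 12.1% of all regions with P19 CTCFL and 8.04% of all regions. Chromosome 19 held 38 (5.83%, 4.16 to 7.91), against 5.76% with all 4 lists and 3.69% of all regions. Chromosome 5 held 34 (5.21%, 3.64 to 7.21), against 7.98% and 7.87%, and X held 4 (0.613%, 0.167 to 1.56), against 1.404% and 1.85%. The share on chromosome 11 is thus near that of P19 CTCFL as a whole.

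Another of the 652 lay within 100 kb of 103 of them (15.8%, 13.1 to 18.8), and within 1000 kb of 389 (59.7%, 55.8 to 63.5). Among the 1353 regions with all 4 lists, 33.8% (31.3 to 36.4) and 81.0% (78.8 to 83.1) had another of their own class this close, in a class with more regions. The closest pair of the 652 was 755 bp apart. Of the 1 Mb windows that held any, 381 held 1 and 91 held 2. The fullest window, chr19:5000001-6000000, held 6 of them among its 27 regions with P19 CTCFL, and is also the window with the most P19 CTCFL peaks, 28. The 6 had 3T3 CTCF scores of 294 to 1140, 3T3 CTCFL scores of 140 to 749 and P19 CTCFL scores of 52.5 to 131. The strongest CTCFL among them in 3T3 was at chr19:5365948-5367448 (749), and in P19 at chr19:5743523-5744369 (131). The window chr2:30000001-31000000 held 5, and 1 region with all 4 lists. The window chr10:80000001-81000000, which had the most 3T3 CTCF peaks (186), held 1 of the 652 and 6 regions with all 4 lists.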

How the data were processed

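Chromatin immunoprecipitation libraries were represented by 4 peak lists, 1 per group. Per the submitters' processing notes, FastQC, Bowtie, SAMtools and MACS 1.4 were used, with builds hg19 and mm9 named. Their roles and settings, and the depth, pooling and control library, are not stated there. Each deposited list gives position and a score per peak, the authors' caller value, which was used only within a list. Per the labels, libraries were made from 10 ng of DNA.

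Peaks sharing at least 1 bp were merged, starts were converted to count from 1, and a region took the highest peak of each list. Intervals of differences combine those of the medians or shares. The members and comparisons were chosen with earlier results of these data known. Named regions were taken from the 10 with the highest mean percentile, the 4 leading each list and the 4 widest. Further ones came from the 4 nearest to and farthest from P19 CTCF, 3 just outside and the fullest 1 Mb window. Not every region of these sets is described. The regions with the weakest P19 CTCF or P19 CTCFL and the like-score comparison were added after their values were seen. The gene table at hand was of GRCm38.p6, and on 10 of 20 chromosomes peaks lay beyond its last gene, so gene, promoter and motif analyses were not run. The tools were bedtools 2.31.1 and, in Python 3.11.15, pandas 2.3.3, numpy 2.4.6, matplotlib 3.10.9 and SciPy 1.17.1. Merging and distances were tested on simulated data and against bedtools.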

Additional observations from a re-analysis of the deposited data

Results flagged for a closer look

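The same contrast, regions without P19 CTCF against regions with peaks of all 4 lists, went in opposite directions in the cell lines for CTCFL. The median CTCFL score was higher without P19 CTCF in 3T3, by 42.7, and lower in P19, with a difference of −25.0. The median width of the CTCFL peak was 118.5 bp greater without P19 CTCF in 3T3, and in P19 the difference was −57.5 bp. No test of 3T3 against P19 was made, since each had 1 library, and the score scales of the lists are not comparable. Median widths of whole lists also differ, at 581 bp for P19 CTCFL and 283 bp for 3T3 CTCFL.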

How the results depend on the processing

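No paired analysis was possible because the 4 groups hold a single library each, which also leaves no replicate to drop. The gene, promoter and motif alternatives were not run. Of the values under the alternatives, 42 stayed within the interval (or 1.5 times the count) of the reported value and 17 moved. Of the score differences, whose alternatives were chosen after seeing the data, 11 did so and 4 did not, and none of either changed sign. With scores of at least 100, 234 regions met the rule, and 145 of the 652 were among them. The limit dropped weaker P19 CTCF peaks as well. Median percentiles of the 234 were 92.7 (3T3 CTCF), 95.8 (3T3 CTCFL) and 85.1 (P19 CTCFL). Of these 234, 31.6% had P19 CTCF within 10 kb and 63.2% had 3T3 centres within 100 bp. The highest minus the lowest group was then 14.1 points for 3T3 CTCFL and −22.5 for P19 CTCFL, and the score differences were −1404 for 3T3 CTCF and 99.4 for 3T3 CTCFL. With lists of 5866 peaks, 62.6% lacked P19 CTCF, only 285 of the 652 regions stayed among 743, and the differences were 119 for 3T3 CTCFL and −30.2 for P19 CTCFL. With 10 score groups the 3T3 CTCF step was −60.2 points. A mean over a region's peaks gave percentile 86.5 for 3T3 CTCFL. P19 CTCF lay within 5 kb of 29.4% and within 50 kb of 88.7%. Centres of the CTCFL peaks lay within 50 bp in 30.2% and within 200 bp in 77.5%, and those of the 3T3 factors in 35.7% and 79.1%. Score and length limits remove weak peaks by construction, and wider limits admit more regions. Unknown read depth limits every absence of a peak.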
